A study of Mus musculus with 26 samples.

Results

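The forkhead (Fox) and T-box (Tbx) genes described here are the 44 genes, 33 Fox and 11 Tbx, whose symbol is Fox followed by a letter and a number or Tbx followed by a number, and which have both an RNA-seq value and a baited promoter fragment. Foxa2, Foxh1, Foxj2, and Tbx3 were left out by the rule. They were taken from 15646 genes with an expression value and from 19022 promoter fragments that have a contact in at least 1 of the 3 deposited lists. Each of the 44 genes has 1 baited fragment, and no other gene name is attached to it. The annotated start site (GENCODE) lies inside the baited fragment for 39 of the 44, and Foxk2, Foxn3, Foxp1, Foxq1, and Tbx1 are the exceptions.

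The values come from 3 mouse pluripotent states. Wild-type embryonic stem cells (WT ESCs, E14Tg2a) and Nanog-/- ESCs, which are the E14Tg2a-derived line RCNβH-B(t) expanded under hygromycin, were both grown on gelatin in serum with LIF, whereas epiblast-derived stem cells (EpiSCs, from 129S2 embryos) were grown on fibronectin in N2B27 with Activin A and bFGF. The growth protocol thus gives 129 strains, although the strain label of the samples reads C57BL/6, and for the comparison with EpiSCs state, medium, substrate, and line of origin cannot be told apart. Expression is the RPKM (reads scaled to transcript length and library size) of 3 WT ESC, 4 EpiSC, and 3 Nanog-/- ESC samples, deposited as 1 median per state. Promoter Capture Hi-C (PCHi-C), which ligates and sequences DNA fragments that lie close together in the nucleus and pulls out those with a promoter, was labelled as 5 WT ESC, 2 EpiSC, and 5 Nanog-/- ESC lanes and deposited as 1 combined list of contacts per state. No value used here therefore has a replicate error, no difference was tested, and all comparisons below describe 1 pooled value against another. The intervals given for shares are Wilson 95% intervals and cover counting error only, and since neighbouring fragments contacted by 1 promoter are not independent, they are too narrow. The depth of the libraries is unknown from these files.

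Forkhead proteins bind DNA through a winged-helix domain, and T-box proteins through the domain named after Brachyury, the product of the T gene. Members of both families direct the formation of germ layers and organs. The FOXA proteins open chromatin in endoderm, FOXC and FOXF proteins act in mesoderm and mesenchyme, TBX1, TBX5, and TBX20 shape the heart and pharyngeal arches, and most of these genes are silent in pluripotent cells. The FOXO proteins are different in kind, since they are widely expressed and are regulated through phosphorylation by AKT downstream of insulin signalling.

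Nanog, the targeted gene, was at 418 RPKM in WT ESCs, against 361 in EpiSCs and 22.3 in Nanog-/- ESCs, as deposited. After the scaling described below, its log2 difference from WT ESCs was -1.12 in EpiSCs and -4.24 in Nanog-/- ESCs. In WT ESCs, 14 of the 44 genes had an RPKM of at least 1. Of these, 12 stayed at or above 1 RPKM in all 3 states, and Foxa3 and Foxr1 dropped under 1 in EpiSCs. Another 13 genes were under 1 RPKM in WT ESCs and reached it in EpiSCs, Nanog-/- ESCs, or both, and the remaining 17 stayed under 1 throughout. These classes use RPKM as deposited. After the scaling described below, Foxn4 (0.689) and Foxo6 (0.955) would also be under 1 in EpiSCs, and Foxs1 (0.575), Tbx1 (0.918), and Tbx2 (0.926) would not reach it. Foxe3, a lens regulator, and Foxi1, which acts in the inner ear, were listed at 0 in all 3 states.

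The genes with the highest level per length were those of widely expressed regulators. Foxo4 had an RPKM of 39.4 in WT ESCs, against 92.1 in EpiSCs and 46.1 in Nanog-/- ESCs. Foxk2 had 31.8, 89.6, and 30.6, and Foxp4 had 27.3, 71.9, and 30.6 in the same order. In each of these genes WT and Nanog-/- ESCs were close and EpiSCs stood above both. The EpiSC column as deposited is higher across the table, by a median factor of 1.89 over genes at 1 RPKM or more in both states. The factor for Nanog-/- ESCs is 1.05. All differences below were taken after dividing each column by its factor, as log2(RPKM + 1), on which scale the change of low genes is understated, and a gene was called when it differed by at least 2-fold, that is by 1 or more. After this step Foxo4, Foxk2, and Foxp4 were 0.30, 0.56, and 0.47 above WT ESCs in EpiSCs on the log2 scale and were not called, and without scaling all 3 would be.

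**Figure D1:**
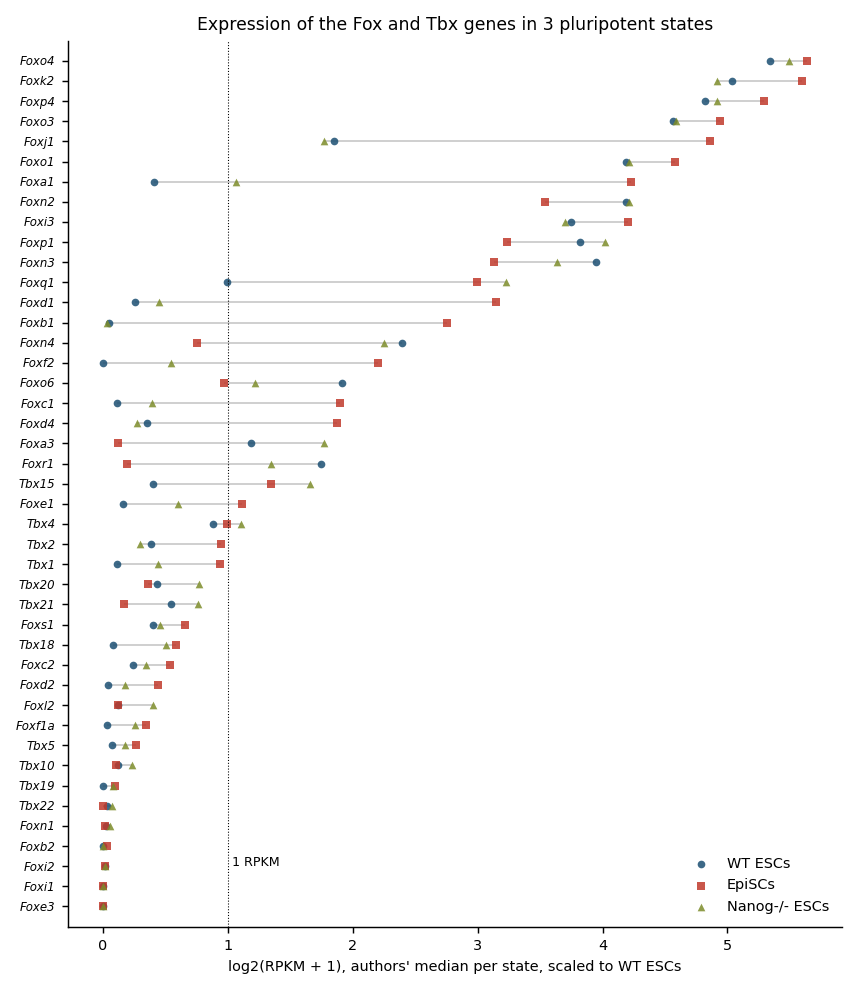
Expression of the genes, 1 of the 44 left out, as log2(RPKM + 1), each symbol being the authors' median of 1 state after scaling to WT ESCs (circles WT ESCs, squares EpiSCs, triangles Nanog-/- ESCs), ordered by the highest value. Foxj1, Foxa1, Foxd1, Foxb1, and Foxf2 have EpiSC values far to the right of both ESC values, and Foxn4, Foxa3, and Foxr1 have EpiSC values to the left.

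In EpiSCs, 8 of the 44 genes were called higher (10.4% of all genes were) and 3 were called lower (9.66% of all genes). The median difference over the 44 genes was 0.28 on the log2 scale, against 0 over all genes and 0.04 over 169 other developmental transcription factor genes, of which 10.7% were called higher and 5.33% lower. The number higher depends on how low values are treated, with 16 genes called when 0.1 instead of 1 is added to the RPKM.

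Foxa1, the endoderm pioneer factor, had an RPKM of 0.330 in WT ESCs, against 33.4 in EpiSCs and 1.15 in Nanog-/- ESCs. Its EpiSC value was 3.82 above WT ESCs on the log2 scale, the largest difference among the 44 genes. Foxj1, the regulator of motile cilia, was at 2.61 RPKM in WT ESCs, against 52.9 in EpiSCs and 2.52 in Nanog-/- ESCs (log2 difference in EpiSCs 3.01). Foxj1 thus reached the highest RPKM of the 8 genes and was the only one of them above 1 RPKM in WT ESCs.

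Foxd1, which marks kidney stroma progenitors and parts of the forebrain, was listed at 0.191, 14.8, and 0.383 RPKM in WT ESCs, EpiSCs, and Nanog-/- ESCs (2.89 in EpiSCs). Foxb1, expressed in the developing neural tube, had 0.0356, 10.8, and 0.0235 RPKM (2.70). Foxd4, a gene of early neural ectoderm, had 0.273, 5.01, and 0.218 RPKM (1.52). In these 3 genes both kinds of ESCs were under 1 RPKM. Foxc1 and Foxf2, which act in mesoderm and mesenchyme, stood at 5.12 and 6.78 RPKM in EpiSCs. In WT ESCs Foxc1 was at 0.0806 RPKM and Foxf2 was listed at 0, and in Nanog-/- ESCs they were at 0.324 and 0.484. Foxb1, Foxf2, and Foxq1 share exon sequence with an annotated neighbour (B230323A14Rik, Gm27516, and A530084C06Rik), and with libraries whose strand is not stated their reads cannot be told apart. The same holds for 7 other members, among them Foxe1, Foxf1a, Foxl2, Foxo1, Foxp1, and Tbx18.

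The 3 genes called lower in EpiSCs were all modestly expressed in WT ESCs. Foxn4, which acts in retinal and spinal interneuron progenitors, had 4.24 RPKM in WT ESCs, against 1.30 in EpiSCs and 3.94 in Nanog-/- ESCs (log2 difference in EpiSCs -1.63). Foxr1 had 2.36, 0.273, and 1.61 RPKM (-1.55), and Foxa3, a liver and gut endoderm gene, had 1.27, 0.162, and 2.53 RPKM (-1.06). Foxa3 and Foxa1 therefore lay on opposite sides of WT ESCs in EpiSCs although both belong to the FOXA group. Foxa3 was just inside the threshold and fell to -0.97 without scaling. Just outside it were Foxe1, Tbx15, and Foxo6 at 0.96, 0.95, and -0.95.

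In Nanog-/- ESCs, 2 of the 44 genes were called higher (1.5% of all genes) and 0 were called lower (1.51%). Foxq1, an epithelial forkhead factor, had 0.992 RPKM in WT ESCs and 8.79 in Nanog-/- ESCs, a difference of 2.24, and with 13.2 RPKM it was also called in EpiSCs (2.00). Tbx15, which acts in skeletal development, had 0.316, 2.89, and 2.25 RPKM in WT ESCs, EpiSCs, and Nanog-/- ESCs and was 1.26 higher in Nanog-/- ESCs. Foxa1 was next, at 0.66, followed by Foxa3 at 0.59, and neither was called.

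Markers of other cell identities moved between the same states. Of 9 primitive endoderm genes, among them Gata4, Gata6, and Sox17, 7 were called higher in Nanog-/- ESCs, where their summed scaled RPKM was 120 against 16.8 in WT ESCs and 25.1 in EpiSCs. In EpiSCs, 4 of the 9 were called higher and 1 lower. Of 6 fibroblast or feeder genes, 5 were called higher in EpiSCs and 1 in Nanog-/- ESCs, with sums of 63.7, 253, and 76.8 RPKM in WT ESCs, EpiSCs, and Nanog-/- ESCs. None of these 15 genes was listed at 0 in any state. Of 10 mesendoderm genes, 7 were higher in EpiSCs, with sums of 12.1 and 226 RPKM, and all 7 naive pluripotency genes in the table were lower, with sums of 890 and 26.2 RPKM. The part of these cell identities in the values of Foxa1, Foxc1, Foxf2, Foxq1, and Tbx15 was not tested, and in pooled cultures more cells of a kind and more RNA per cell cannot be told apart.

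Of the 4 T-box genes outside the Tbx symbols, T (3.37, 444, and 1.14 RPKM in WT ESCs, EpiSCs, and Nanog-/- ESCs) and Eomes (2.85, 26.2, and 2.33) were called higher in EpiSCs, T was called lower in Nanog-/- ESCs, and Tbr1 and Mga were not called. None of the 11 Tbx genes was called in EpiSCs, and their highest RPKM in any state was the 2.89 of Tbx15 in EpiSCs. The 4 Foxo genes were not called in either comparison. Foxo1 had 17.2, 43.1, and 18.4 RPKM and Foxo3 had 22.6, 55.9, and 24.2, and their log2 differences in EpiSCs of 0.39 and 0.37 pass the threshold only without scaling. Of 15 regulators and targets of FOXO proteins in the table, 2 were called higher in EpiSCs (Akt1 and Irs2), 2 lower (Sgk1 and Gadd45a), and 2 lower in Nanog-/- ESCs (Sgk1 and Pik3ip1). Sgk1, a kinase that phosphorylates FOXO proteins, had 105 RPKM in WT ESCs, against 18.7 in EpiSCs and 31.5 in Nanog-/- ESCs.

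Promoter sequences are shown for 3 of the genes because they differ in the features described here, a gene switched on in EpiSCs with a forkhead motif of its own, a gene switched on in EpiSCs with a promoter rich in CG, and a gene under 1 RPKM throughout with a promoter nearly without CG. Each run is the 250 bases before the RefSeq start site (GRCm38.p6), 5′ to 3′ on the strand of the gene. For Foxa1 (chr12:57546112-57546361, minus strand) capitals mark GTAAACA, the reverse complement of the forkhead motif TGTTTAC. The last base of this match lies 135 bases before the RefSeq start site. GENCODE places the start of Foxa1 farther upstream, at 57546916, so this run lies inside the gene as annotated there. For Foxc1 (chr13:31806396-31806645, plus strand) and Tbx22 (chrX:107667714-107667963, plus strand) capitals mark each CG.
Foxa1: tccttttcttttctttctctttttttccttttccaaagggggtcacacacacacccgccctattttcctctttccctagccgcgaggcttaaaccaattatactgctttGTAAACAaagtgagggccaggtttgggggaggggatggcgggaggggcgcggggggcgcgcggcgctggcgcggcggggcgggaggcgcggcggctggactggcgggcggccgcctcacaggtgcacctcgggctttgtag
Foxc1: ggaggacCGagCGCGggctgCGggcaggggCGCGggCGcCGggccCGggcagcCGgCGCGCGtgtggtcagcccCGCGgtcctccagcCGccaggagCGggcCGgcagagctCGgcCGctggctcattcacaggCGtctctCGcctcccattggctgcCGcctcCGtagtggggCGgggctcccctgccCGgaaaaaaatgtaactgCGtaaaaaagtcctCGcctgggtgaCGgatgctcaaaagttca
Tbx22: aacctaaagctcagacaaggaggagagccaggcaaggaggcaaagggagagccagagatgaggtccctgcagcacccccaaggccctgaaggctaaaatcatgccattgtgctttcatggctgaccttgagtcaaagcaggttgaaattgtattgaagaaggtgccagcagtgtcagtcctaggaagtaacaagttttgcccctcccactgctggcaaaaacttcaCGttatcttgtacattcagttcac

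These runs hold 21, 29, and 1 CG. RefSeq windows of 300 bases, 250 before and 50 after the start, were matched for 30 of the 44 genes. Their median observed over expected CG was 0.68, close to the 0.65 of 10653 promoters of genes in the RNA-seq table, and 63.3% against 54.1% of them were above 0.6. The median differed between expression classes, at 0.85 in 8 genes at 1 RPKM or more in all 3 states. It was 0.73 in 7 genes that reached 1 RPKM only outside WT ESCs, and 0.43 in 13 genes under 1 RPKM throughout. The classes overlapped, with Foxn3 (0.29) and Foxp1 (0.28) in the first and Foxd2 (0.76) and Tbx20 (0.75) in the last. Some windows lie well inside the gene as GENCODE annotates it, among them those of Foxa1, Foxn3, Foxp1, and Tbx4. Other promoters were not split by expression. The forkhead motif TGTTTAC was found on either strand in 1 of 30 promoters, that of Foxa1 (3.33%, against 2.85% of the promoters of RNA-seq genes), and the T-box motif TCACACC in 0 of 30 (3.60%).

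In the PCHi-C lists a contact is a pair of HindIII fragments whose CHiCAGO score, which grows with the excess of read pairs over those expected for fragments so far apart, is at least 5. The 44 promoters had 400 contacts in WT ESCs, against 356 in EpiSCs and 296 in Nanog-/- ESCs, all within their chromosome. The median number per promoter was 6, 4.5, and 3.5, against 3, 3, and 2 over all baits and 7, 6, and 4.5 over the baits of 168 other developmental transcription factor genes. The families thus had more contacts than the typical bait and were close to other developmental regulators. The number of contacts relative to WT ESCs was 0.890 in EpiSCs and 0.740 in Nanog-/- ESCs, near the ratio of the whole lists, which hold 100492, 87369, and 74931 different pairs (ratios 0.869 and 0.746). A promoter or contact absent from a list was not listed at this score, which does not show that there was no contact.

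Promoters with more contacts in EpiSCs numbered 17, or 38.6% (33.5% of all baits), and 24, or 54.5%, had fewer (52.8%). A gain of 5 or more was seen in 5 promoters (11.4%, against 7.4% of all baits) and a loss of 5 or more in 10 (22.7%, against 15.6%). In Nanog-/- ESCs, 10 promoters had more contacts (22.7%, against 21.6%) and 28 had fewer (63.6%, against 60.7%). Only Foxo6 gained 5 or more there (2.27%, against 3.1%), and 10 lost 5 or more (22.7%, against 15.6%). Most of these shares lie close to those of all baits, and the individual promoters below differ widely around them.

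**Figure D2:**
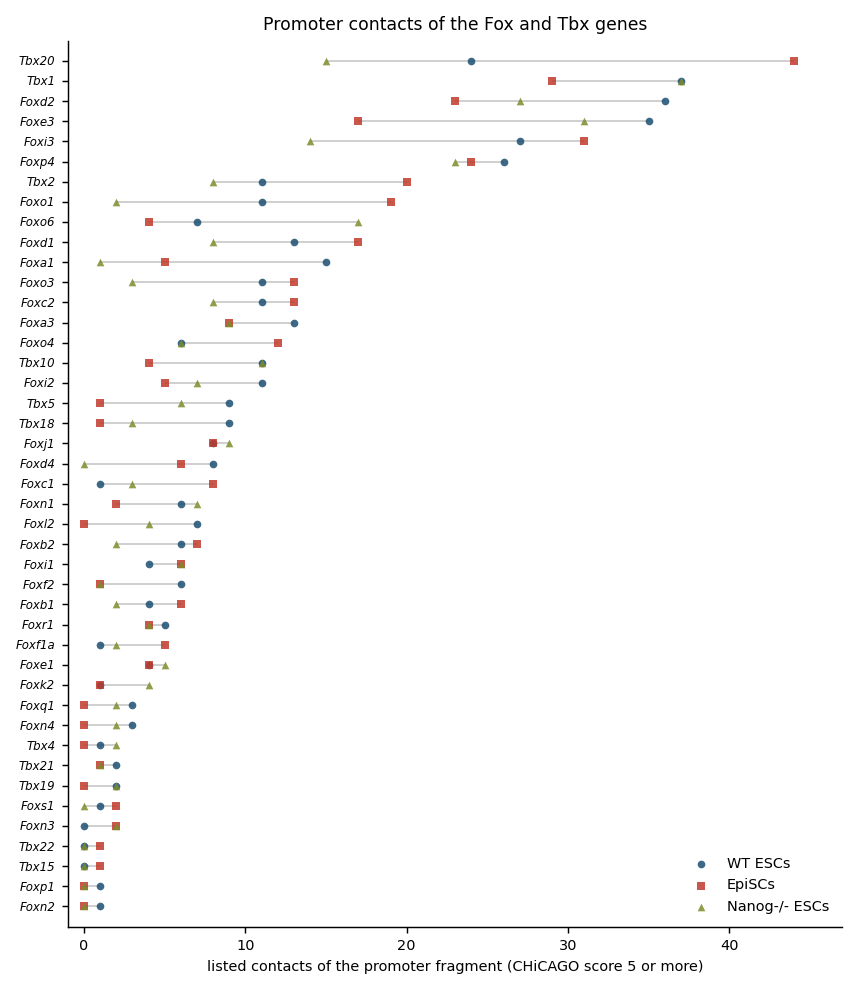
Number of listed contacts of the promoter fragments, 1 of the 44 left out, in WT ESCs (circles), EpiSCs (squares), and Nanog-/- ESCs (triangles), ordered by the highest number. Tbx20 reaches 44 contacts in EpiSCs, Foxa1 goes from 15 in WT ESCs to 1 in Nanog-/- ESCs, and Foxo6 is highest in Nanog-/- ESCs with 17.

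Tbx20, a cardiac regulator (baited fragment chromosome 9, 24772441 to 24776864), had 24 contacts in WT ESCs, against 44 in EpiSCs and 15 in Nanog-/- ESCs, while its RPKM was 0.347, 0.536, and 0.733. All of them lay on 1 side of the promoter, most in a nearly unbroken stretch of 44 fragments from 101 to 341 kb away that is intergenic but for Gm10181 and Herpud2. In this stretch 23, 40, and 12 fragments were listed in WT ESCs, EpiSCs, and Nanog-/- ESCs. The highest scores, 14.68 in WT ESCs (24 reads at 266 kb), 15.13 in EpiSCs (22 reads at 194 kb), and 11.18 in Nanog-/- ESCs (14 reads at 259 kb), belonged to 3 different intergenic fragments of it. EpiSC contacts reached nearer to the promoter than those of either ESC, with 2 fragments at 44 and 60 kb listed in EpiSCs alone. Farther out, of 3 fragments at 377 to 381 kb around Herpud2, 1 was listed in WT ESCs, against 2 in EpiSCs and 3 in Nanog-/- ESCs.

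Tbx2, which encodes a transcriptional repressor that acts in limb and heart development, had 11, 20, and 8 contacts. Its highest score in WT ESCs (14.21, 17 reads) and EpiSCs (18.33, 16 reads) fell on the same intronic fragment of Bcas3, 304 kb away, and that in Nanog-/- ESCs (11.56, 10 reads) on a Bcas3 fragment at 312 kb that carries the bait Mir1935. Of 8 neighbouring Bcas3 fragments at 302 to 323 kb, 4 were listed in WT ESCs, against 8 in EpiSCs and 2 in Nanog-/- ESCs. Of 7 others at 92 to 119 kb, 2, 7, and 2 were listed. On the other side of the promoter, of 2 fragments at 6.40 to 8.90 kb, 0, 2, and 1 were listed. Tbx2 had 0.308, 1.75, and 0.235 RPKM.

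Foxo1 had 11 contacts in WT ESCs, against 19 in EpiSCs and 2 in Nanog-/- ESCs, at median distances of 567, 573, and 572 kb. They lie beyond the 3′ side of Foxo1 in the direction of Cog6, mostly on intergenic fragments. The highest scores were 9.29 in WT ESCs (9 reads at 704 kb), 12.46 in EpiSCs (10 reads at 573 kb), and 5.64 in Nanog-/- ESCs (5 reads at 571 kb). Of 10 intergenic fragments at 562 to 584 kb, 4, 8, and 2 were listed. Foxo3 had 11, 13, and 3 contacts. Its highest score lay in an intron of Armc2 in WT ESCs (14.32, 16 reads, 309 kb) and Nanog-/- ESCs (9.35, 9 reads, 312 kb), and in an intron of Sesn1 in EpiSCs (11.90, 11 reads, 456 kb). Sesn1, which encodes a sestrin, is itself a known target of FOXO proteins, and of the 7 fragments in its introns 4 were listed in WT ESCs, against 6 in EpiSCs and 0 in Nanog-/- ESCs. Foxo4 had 6, 12, and 6 contacts, with the highest score at 10.6 kb in WT ESCs (11.63, 74 reads), at 76.9 kb near Nlgn3 in EpiSCs (10.67, 21 reads), and on the Nlgn3 bait in an exon of Med12 in Nanog-/- ESCs (10.32, 15 reads, 38.8 kb). These 3 Foxo promoters thus had most contacts in EpiSCs. Foxo6 did not follow them, with 7, 4, and 17 contacts, mainly intergenic fragments within 112 kb on either side. Its highest score was on the same fragment 16.2 kb away in WT ESCs (8.03, 80 reads) and Nanog-/- ESCs (8.05, 41 reads) and 65.9 kb away in EpiSCs (10.26, 26 reads). Its RPKM of 2.77, 1.80, and 1.39 was lower in Nanog-/- ESCs by 0.70 on the log2 scale, which was not called.

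Foxc1 had 1 contact in WT ESCs, against 8 in EpiSCs and 3 in Nanog-/- ESCs. The WT ESC contact, 175 kb away in an intron of Foxf2 (14 reads, score 8.62), was listed again in Nanog-/- ESCs (7 reads, 5.42) and not in EpiSCs. All EpiSC contacts lay on the other side of the gene, the highest at 607 kb beyond Gmds (7 reads, 11.27). In Nanog-/- ESCs the highest score was in an intron of Gmds (7 reads, 8.48, 415 kb). Foxc1, Foxf2, and Foxq1 are neighbours on chromosome 13, and the promoter fragments of Foxf2 and Foxq1, 62.2 kb apart, contacted the Irf4 promoter at 871 and 809 kb in WT ESCs (6 reads, score 6.30, and 7 reads, 6.72). Neither contact was listed in the other states. Foxq1 had 3, 0, and 2 contacts, with its highest score in Nanog-/- ESCs at 206 kb (10 reads, 8.13).

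Foxf2, listed at 0 RPKM in WT ESCs, had 6 contacts there and 1 each in EpiSCs and Nanog-/- ESCs. The EpiSC contact joined it to a fragment in an intron of Exoc2, 733 kb away (10 reads, score 16.91) and was not listed in either ESC. This fragment (chr13:30889147-30889348, GRCm38.p6, plus strand) is shown whole because it was the only EpiSC partner of a gene that was at 1 RPKM or more in EpiSCs alone. Capitals mark the bases of the HindIII sites at its ends.
Foxf2 partner in EpiSCs: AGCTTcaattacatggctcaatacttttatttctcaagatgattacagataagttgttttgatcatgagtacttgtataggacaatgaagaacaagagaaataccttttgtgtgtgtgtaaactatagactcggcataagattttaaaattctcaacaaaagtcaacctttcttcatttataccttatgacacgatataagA

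Foxa1 (baited fragment chromosome 12, 57540076 to 57547561) had 15 contacts in WT ESCs, against 5 in EpiSCs and 1 in Nanog-/- ESCs. Its contacts were among the longest of the families, with a median distance of 853 kb in WT ESCs. The one with Pax9, a regulator of pharyngeal pouch and tooth development 850 kb away, was listed in all 3 states, with 15 reads and a score of 30.74 in WT ESCs, 8 reads and 18.08 in EpiSCs, and 9 reads and 20.27 in Nanog-/- ESCs. It was the sole Foxa1 contact in Nanog-/- ESCs. Contacts with Nkx2-9 at 931 kb (5 reads, 7.44) and Nkx2-1, a thyroid and lung regulator, at 1007 kb (4 reads, 5.39) were listed in WT ESCs alone, and so were 4 further fragments next to Nkx2-1. In EpiSCs, where Foxa1 was expressed, the highest score was with the Prps1l3 bait in Mipol1, 313 kb away (11 reads, 18.16), which had 7 reads and 7.10 in WT ESCs.

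**Figure D3:**
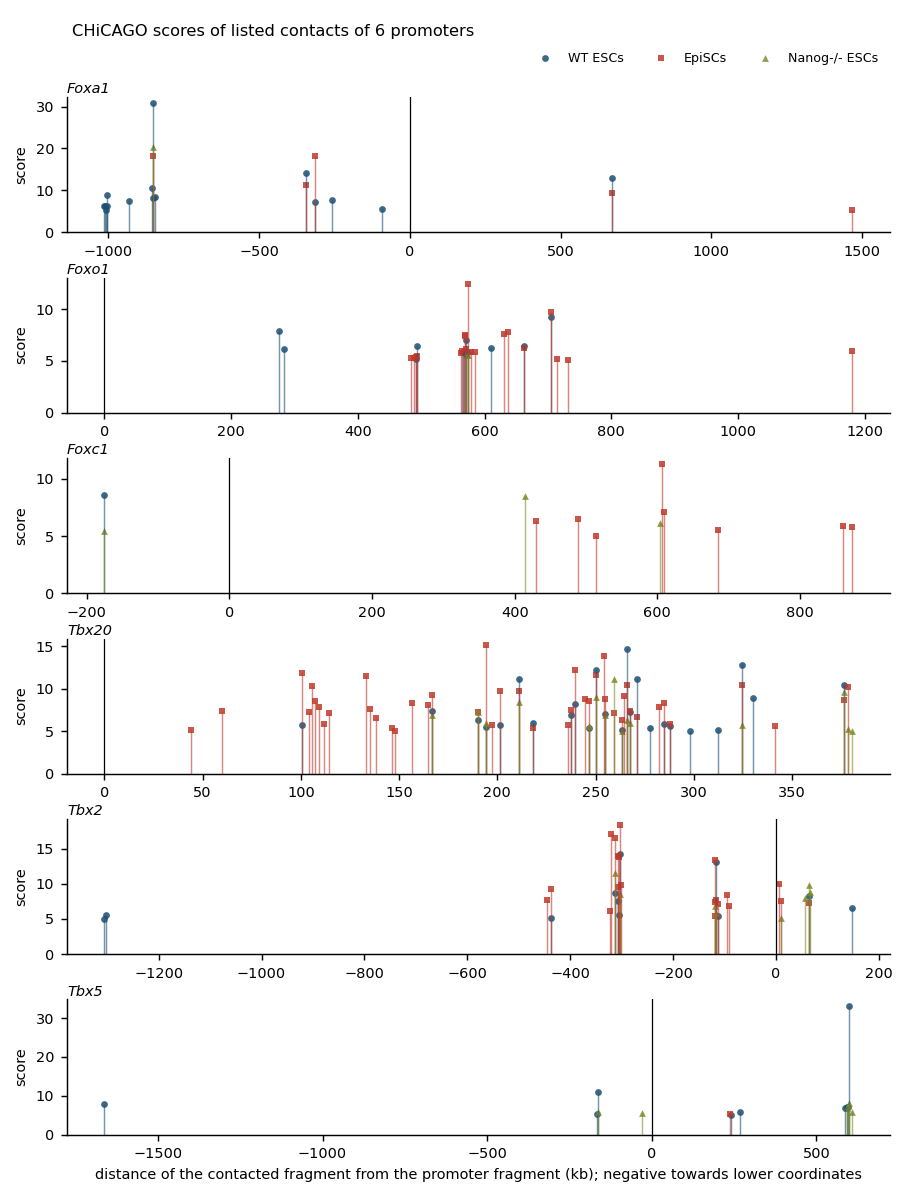
CHiCAGO score of each listed contact against its distance from the promoter fragment in kb for Foxa1, Foxo1, Foxc1, Tbx20, Tbx2, and Tbx5 (circles WT ESCs, squares EpiSCs, triangles Nanog-/- ESCs, black line the promoter). Foxa1 contacts near 1000 kb are WT ESC symbols only, Foxc1 contacts beyond 400 kb are EpiSC and Nanog-/- ESC symbols, and Tbx20 contacts from 100 to 160 kb are almost all EpiSC symbols.

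Foxd2 and Foxe3 lie side by side on chromosome 4, with promoter fragments 16.1 kb apart, and were among the promoters with most contacts. Foxd2 had 36, 23, and 27 contacts in WT ESCs, EpiSCs, and Nanog-/- ESCs, and Foxe3 had 35, 17, and 31. They shared 29 partner fragments, which is 61.7% of all partners of Foxd2 and 60.4% of those of Foxe3, so their values are not independent. The promoters contacted each other in WT ESCs (92 reads, score 11.17) and Nanog-/- ESCs (57 reads, 20.58), and this contact was not listed in EpiSCs. It was the contact with the highest score of both genes in Nanog-/- ESCs. For Foxd2 the highest score in the other lists was on an intergenic fragment 242 kb away, with 36.69 in WT ESCs (34 reads) and 16.87 in EpiSCs (19 reads). For Foxe3 it was the promoter of Dmbx1, a midbrain homeobox gene 1017 kb away, in WT ESCs (10 reads, 18.04) and an intergenic fragment at 277 kb in EpiSCs (19 reads, 18.69). Foxd2 also contacted Dmbx1 in WT ESCs (9 reads, 15.80) and Nanog-/- ESCs (5 reads, 8.01), and Tal1, a blood and midbrain regulator 155 kb away, in all 3 lists (30, 9, and 16 reads, scores 27.05, 6.68, and 17.95). Over the much longer distance of 4932 kb it was joined in WT ESCs to the bait 3010003L10Rik next to Dmrta2 (8 reads, 21.12). In EpiSCs a nearby fragment by Dmrta2, 4922 kb away, was listed (6 reads, 12.44). Foxd2 was under 1 RPKM in all states.

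Tbx1, the pharyngeal gene of the 22q11 deletion syndrome, had 37 contacts in WT ESCs, against 29 in EpiSCs and 37 in Nanog-/- ESCs, spread over a gene-dense stretch with Txnrd2 and Arvcf. The highest score was on the Gp1bb promoter, 36.2 kb away, in WT ESCs (167 reads, 49.31) and Nanog-/- ESCs (103 reads, 35.35), and on a fragment with an exon of Tbx1, 9.21 kb away, in EpiSCs (159 reads, 27.00). That last fragment holds the annotated start site of Tbx1 (GENCODE), which lies outside the baited fragment. The contacts given for Tbx1 are those of its baited fragment. A group of 3 fragments at Scarf2, 780 to 788 kb away, was listed in WT ESCs with up to 14 reads and a score of 19.63, and 1 of the 3 was listed in Nanog-/- ESCs and none in EpiSCs. Tbx18, which acts in the epicardium, had 9, 1, and 3 contacts, with Nt5e at 597 kb highest in WT ESCs (12 reads, 21.46) and Nanog-/- ESCs (6 reads, 11.81) and Zfp949 at 821 kb as the single EpiSC contact (5 reads, 5.1).

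Other promoters with many contacts were Foxi3, Foxp4, Foxd1, Foxa3, and Foxc2. Foxi3, a factor of ectodermal placodes that was expressed in all 3 states, had 27, 31, and 14 contacts. Its highest score was on the Thnsl2 promoter 187 kb away in WT ESCs (10 reads, 13.81) and EpiSCs (15 reads, 22.54), where Nanog-/- ESCs had 4 reads and 6.97, and on an intergenic fragment at 59.9 kb in Nanog-/- ESCs (19 reads, 12.36). Foxp4 had 26, 24, and 23 contacts, the most even numbers among promoters with over 20, and its highest scores lay at 170 to 173 kb in all 3 lists (12.92, 14.82, and 10.13).

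Foxd1 had 13, 17, and 8 contacts, and the intergenic fragment at 144 kb had the highest score in WT ESCs (26 reads, 14.81) and EpiSCs (27 reads, 21.46), while in Nanog-/- ESCs it was the neighbouring Gm10320 bait at 140 kb (17 reads, 13.48). Foxc2, a lymphatic and mesodermal regulator, had 11, 13, and 8 contacts, and the fragment 399 kb away in an intron of Gm20388 had the highest score in all 3 lists (13.48, 16.23, and 18.36, with 12, 11, and 12 reads). The same partner thus led in all states for Foxc2, although it was under 1 RPKM in each. Foxa3 had 13, 9, and 9 contacts at short range, with the highest score on Dmpk in WT ESCs (19 reads, 11.55), on Irf2bp1 in EpiSCs (53 reads, 13.35), and on the homeobox gene Six5 in Nanog-/- ESCs (13 reads, 16.27).

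Further promoters with small numbers had more contacts in Nanog-/- ESCs. Foxk2 had 1, 1, and 4 contacts, with the highest score on Wdr45l in WT ESCs (17 reads, 5.31) and on Narf, 15.5 kb away, in EpiSCs (57 reads, 9) and Nanog-/- ESCs (55 reads, 13.59). Foxi1 had 4, 6, and 6 contacts, with Kcnmb1 at 245 kb leading in WT ESCs (18 reads, 8.81) and Nanog-/- ESCs (11 reads, 8.10) and an intergenic fragment at 87.5 kb in EpiSCs (20 reads, 6.63). Foxn3 had 0, 2, and 2 contacts, with scores of up to 6.97 in EpiSCs (7 reads, 357 kb) and 5.28 in Nanog-/- ESCs (5 reads, 346 kb). With these few contacts of low score the order of the states rests on 1 to 3 listed pairs.

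By median distance, the contacts of the families were longer than those of all baits. Against other developmental transcription factor genes they were longer in WT ESCs and close in length in EpiSCs and Nanog-/- ESCs. The median distance was 173 kb in WT ESCs, 171 kb in EpiSCs, and 100.0 kb in Nanog-/- ESCs, against 137, 136, and 76.1 kb over all baits and 148, 176, and 96.6 kb for the other developmental transcription factor genes. Contacts above 800 kb made up 35 of 400 in WT ESCs (8.75%, interval 6.36% to 11.9%), 12 of 356 in EpiSCs (3.37%, 1.94% to 5.80%), and 6 of 296 in Nanog-/- ESCs (2.03%, 0.932% to 4.35%). Over all baits these shares were 1.36%, 1.78%, and 0.390%, and for other developmental transcription factor genes 4.30%, 5.93%, and 1.74%. The share was thus highest in WT ESCs for the Fox and Tbx genes and highest in EpiSCs for both comparison sets. This rests in part on few promoters, since Foxa1 and Foxd2 account for 10 and 9 of the 35, and without both the shares were 4.58% (2.84% to 7.32%), 2.13% (1.04% to 4.34%), and 1.49% (0.582% to 3.77%). It also rests on few reads, with a median of 5 reads in WT ESCs and a highest number of 15, and among contacts with at least 10 reads the shares were 0.717%, 0, and 0.

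**Figure D4:**
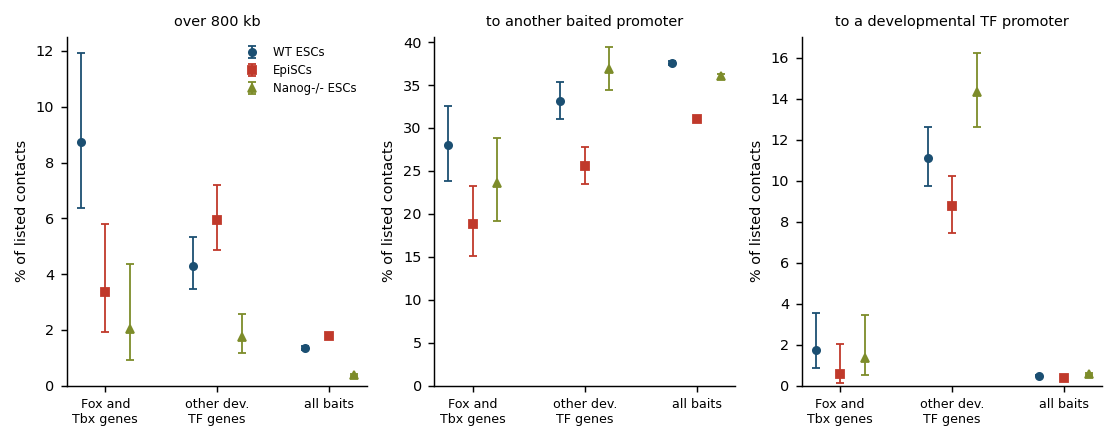
Share of listed contacts above 800 kb (left), to another baited promoter fragment (middle), and to the promoter of a developmental transcription factor gene (right), in percent, for the Fox and Tbx genes, other developmental transcription factor (TF) genes, and all baits. Symbols are states (circles WT ESCs, squares EpiSCs, triangles Nanog-/- ESCs) and bars are Wilson 95% intervals, and the WT ESC share above 800 kb of the Fox and Tbx genes, 8.75%, is the highest in the left panel.

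Contacts with another baited fragment made up 28.0% in WT ESCs (23.8% to 32.6%), 18.8% in EpiSCs (15.1% to 23.2%), and 23.6% in Nanog-/- ESCs (19.2% to 28.8%), below the 37.5%, 31.0%, and 36.0% of all baits. For other developmental transcription factor genes these shares were 33.2%, 25.5%, and 36.9%. Most contacts of the families thus went to fragments without a bait, as did those of both comparison sets. Of 658 different pairs over the 3 lists, 50.6% joined the promoter to an intergenic fragment, 30.1% to one with an exon of a protein-coding gene, and 19.3% to one within an intron. Promoters of developmental transcription factor genes with the symbols searched, among them those of the Hox, Pax, Sox, Lhx, and Nkx genes but not of every homeobox gene, were contacted 7, 2, and 4 times (1.75%, 0.562%, and 1.35%). The share was 0.493%, 0.395%, and 0.581% over all baits and 11.1%, 8.74%, and 14.3% for the other developmental transcription factor genes. Contacts within the set count for these other genes, whereas contacts among the Fox and Tbx genes were not counted for the Fox and Tbx genes.

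These 7 partners belonged to 5 genes. Besides Pax9, Nkx2-9, and Nkx2-1 for Foxa1, the list holds Six5 for Foxa3, 73.7 kb away and listed in all 3 states. Foxl2, a regulator of the ovary, contacted Sox14 at 919 kb in WT ESCs (8 reads, 12.56) and Nanog-/- ESCs (8 reads, 15.82). Tbx2 contacted Lhx1, a head organizer gene 1305 kb away, in WT ESCs (4 reads, 5.04), and Tbx5, a limb and heart gene, contacted Lhx5, 600 kb away, in WT ESCs (27 reads, 33.17) and Nanog-/- ESCs (7 reads, 8.17). None of the 3 contacts of Foxl2, Tbx2, and Tbx5 was listed in EpiSCs. Foxl2 had 7, 0, and 4 contacts in all and Tbx5 had 9, 1, and 6.

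Some partners of the same kind fall outside the searched symbols and were picked out after their values were seen. Among them are the homeobox genes Dmbx1, contacted by Foxd2 and Foxe3 as given above, and Otp, 3477 kb from Foxd1, which was listed in EpiSCs only (4 reads, 7.35). Foxd4 contacted the Dmrt gene cluster, with Dmrt1 at 608 kb (6 reads, 10.43 in WT ESCs, and 4 reads, 7.10 in EpiSCs) and Dmrt2 at 773 kb (7 reads, 9.97 in WT ESCs, and 12 reads, 22.21 in EpiSCs). It had 8, 6, and 0 contacts, so none was listed in Nanog-/- ESCs. Tbx5 contacted Tbx3, its neighbour 162 kb away, in WT ESCs (24 reads, 10.90) and Nanog-/- ESCs (9 reads, 5.72). Between the 44 genes themselves, the contact of Tbx2 with Tbx4, 56.1 kb away, was listed in Nanog-/- ESCs only (11 reads, 7.93), and that of Foxd2 with Foxe3 is given above.

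The super-enhancers of ESCs, clusters of enhancers with dense binding of pluripotency factors, were the subject of the study. No contact of the 44 promoters ended on a super-enhancer fragment in any list, and none of the promoters lies in one. The count was 0 of 400 in WT ESCs, against 0 of 356 in EpiSCs and 0 of 296 in Nanog-/- ESCs, which allows shares of up to 0.951%, 1.07%, and 1.28% (Wilson). Over all baits the share was 0.261%, 0.281%, and 0.263%, which is below these limits, so a lack of such contacts in the families was not detectable with this number of contacts. The larger sets of super-enhancers that the study itself called in ESCs and in EpiSCs were not searched.

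Of the 400 contacts in WT ESCs, 184 (46.0%, 41.2% to 50.9%) were also listed in EpiSCs and 189 (47.2%, 42.4% to 52.1%) in Nanog-/- ESCs. These shares were 40.3% and 42.7% over all baits and 47.7% and 54.3% for other developmental transcription factor genes. Over all 3 lists 118 of the 658 pairs (17.9%) were shared, against 15.3%. Pairs listed in 1 state only numbered 145 in WT ESCs, against 151 in EpiSCs and 86 in Nanog-/- ESCs. Contacts up to 100 kb were shared more widely with Nanog-/- ESCs (78 of 120, 65.0%) than with EpiSCs (54 of 120, 45.0%), and over all baits these shares were 62.9% and 48.5%. For other developmental transcription factor genes they were 78.3% and 54.9%. Of the 35 contacts above 800 kb in WT ESCs, 2 were also listed in EpiSCs (5.71%, 1.58% to 18.6%) and 5 in Nanog-/- ESCs (14.3%, 6.26% to 29.4%). Over all baits the order was the opposite, with 22.9% in EpiSCs and 10.7% in Nanog-/- ESCs, as it was for other developmental transcription factor genes (35.4% and 24.1%). The order in the families rests on only 2 and 5 pairs. Among the 5 are the contacts of Foxd2 and Foxe3 with the same Dmbx1 fragment and those of Foxl2 with neighbouring fragments at Sox14. When another fragment within 10 kb was accepted as the same partner, 70.0% and 70.2% of the 400 contacts were found again.

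Higher expression did not go with more contacts in all genes. Of the 8 genes called higher in EpiSCs, Foxb1, Foxc1, and Foxd1 had more contacts there, Foxj1 had the same number, and Foxa1, Foxd4, Foxf2, and Foxq1 had fewer, so that the 8 promoters together had 58 contacts in WT ESCs and 51 in EpiSCs. The 3 genes called lower, Foxa3, Foxn4, and Foxr1, all had fewer, with 21 and 13 contacts. Tbx20, with the largest gain, and Foxe3, with the largest loss, were under 1 RPKM in both states. In Nanog-/- ESCs Foxq1 went from 3 to 2 contacts and Tbx15 had 0 in both lists, while Foxo1 went from 11 to 2 contacts at an RPKM of 17.2 and 18.4.

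**Figure D5:**
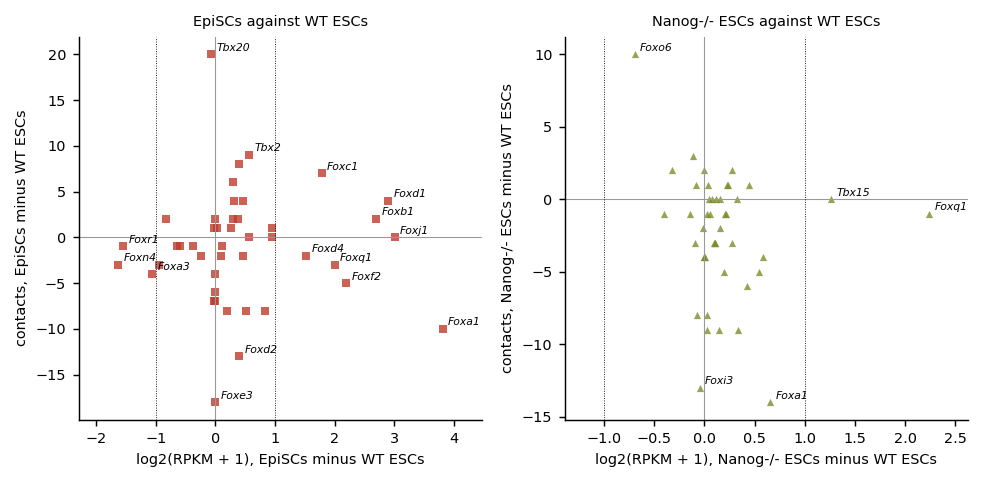
Difference in contact number against difference in log2(RPKM + 1) for the 44 genes, EpiSCs minus WT ESCs (left) and Nanog-/- ESCs minus WT ESCs (right), with dotted lines at 2-fold. Of the 8 genes right of the upper line in EpiSCs, 3 lie above 0 contacts, 1 on it, and 4 below, and the largest gain in contacts, of Tbx20, falls near no difference in expression.

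Genes under 1 RPKM in all 3 states were not poor in contacts. The 17 of them had a median of 7 contacts in WT ESCs, against 4 in EpiSCs and 6 in Nanog-/- ESCs, at a median distance of 242 kb in WT ESCs. The 12 genes at 1 RPKM or more in all states had 6.5, 6, and 3.5 contacts, at 112 kb in WT ESCs, and the 13 that reached 1 RPKM only outside WT ESCs had 4, 5, and 2, at 207 kb. The classes overlapped, with promoters of 1 or 0 WT ESC contacts in each but the class of Foxa3 and Foxr1.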

How the data were processed

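RNA-seq libraries (TruSeq v2, strand not stated) were processed with Trim Galore, TopHat, and DESeq2 per the submitters' notes, in GRCm38. The authors deposited, for 15741 rows, RPKM values as 1 median per state, and the 15646 genes with values in all 3 states were used. The column for BT12 was taken as the Nanog-/- line RCNβH-B(t). The authors' own log2 fold change and p-value columns were neither used nor compared. For PCHi-C, the notes name Bowtie 1.1.0, and by the methods of the study reads were filtered with HiCUP, scored with CHiCAGO, and 2 replicates per cell type were combined. The deposited lists give the read count and the CHiCAGO score of each pair of fragments, as the authors made them, and no score is under 5.

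The depth per sample is not in the files. Each pair was counted once per bait, with its highest score, and distance was taken between fragment midpoints. RPKM columns were scaled to WT ESCs by the median ratio over genes at 1 RPKM or more in both, and compared as log2(RPKM + 1). Each state has 1 RPKM value, and no test was made here. Fragments were annotated with GENCODE M21 and promoters with RefSeq, and all 663 fragments of the 44 genes have HindIII sites at both ends. Super-enhancer fragments were those the study listed for the 231 super-enhancers defined earlier in ESCs, and its larger sets for ESCs and EpiSCs were not used. The genes named are those called in either comparison, the 10 with the highest RPKM, the 10 with most contacts in WT ESCs, the 5 largest gains and losses of contacts per state, and contacting pairs, and others are named as chosen later where they appear. The genes and lists were chosen with earlier results of these data known. Other lists gave, in EpiSCs, 4 of 9 primed epiblast genes higher, 3 of 8 general pluripotency genes lower, 1 of 6 neural genes higher and 1 lower, and 1 of 12 FOXM1 targets lower, and in Nanog-/- ESCs 3 primed, 1 neural, 2 mesendoderm, and 3 naive genes lower. The ChIP-seq samples were not analysed here. The values of 1 of the 44 genes enter the counts and medians and are not reported here by name. Counting was tested on simulated data. Python 3.11.15, pandas 2.3.3, numpy 2.4.6, and samtools 1.23.1 were used.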

Additional observations from a re-analysis of the deposited data

How the results depend on the processing

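No paired analysis was possible because the deposited expression values are medians over the samples of a state and the contact lists are combined over replicates, so that no column carries a replicate number, and for the same reason no replicate could be left out. Against 8 genes higher and 3 lower in EpiSCs, adding 0.1 in place of 1 gave 16 and 6, no scaling gave 18 higher, and a 1.5-fold threshold gave 7 lower. Against 2 higher and 0 lower in Nanog-/- ESCs, adding 0.1 gave 10 and 1, and a 1.5-fold threshold gave 4 and 1. Without scaling, Foxi3, Foxk2, Foxo1, Foxo3, Foxo4, Foxp4, and Tbx15 passed 2-fold in EpiSCs and Foxa3 did not. The median of 6 contacts in WT ESCs became 2.5 at a score of 7 or more and 3 with at least 10 reads. The medians of 4.5 in EpiSCs and 3.5 in Nanog-/- ESCs both became 2 under either setting, although they are counted below as not moved. The 3 states thus lay closer together under these settings. With at least 10 reads the median distance became 124.1 kb in WT ESCs, 119 kb in EpiSCs, and 47.6 kb in Nanog-/- ESCs, the share above 800 kb became 0.717%, 0, and 0, and the share of WT ESC contacts also listed in Nanog-/- ESCs became 41.9%. Leaving out contacts under 20 kb gave a median of 140 kb in Nanog-/- ESCs. At a score of 7 or more, 33.0% of contacts in WT ESCs and 33.3% in Nanog-/- ESCs reached a baited fragment. With partners matched within 10 kb, 70.0% and 70.2% of WT ESC contacts were found in EpiSCs and Nanog-/- ESCs. Per 100000 pairs of the whole list, the number of contacts in Nanog-/- ESCs was 0.992 of that in WT ESCs, and that in EpiSCs 1.02 in place of 0.890. In all, 23 summary values moved and 75 did not, and no called value changed sign. Some of the 75 could not have moved. Keeping only baits with no other gene name removed nothing, and counts of 0 super-enhancer contacts could not rise under stricter settings. The tally is therefore no measure of how firm the results are. Without scaling, Foxn2 and Foxp1, which were not called, went from -0.65 and -0.59 to 0.20 and 0.25 in EpiSCs, and Foxi3 from -0.047 to 0.017 in Nanog-/- ESCs. Most of the contacts above 800 kb rest on under 10 reads.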
